A study of Homo sapiens with 20 samples.

Results

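The genes described here are 37 genes of homologous recombination and the Fanconi anaemia pathway, measured in the LNCaP line, long-established prostate cancer cells of human origin that respond to androgen. They were chosen by name, with earlier results of these data known. Each was read from the brightest transcript cluster annotated to that gene alone, by its mean over all arrays. Of the 37 genes, 32 were measured in this way, out of 18417 genes tested. No feature carried the names BRCA2, RBBP8, FANCA or FANCD2, and RAD51D shared its only feature with another symbol, so these 5 were not analysed here. The 32 genes were set beside 43 other genes of the same pathways and 18 genes of end joining, the rival route of break repair.

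Homologous recombination mends a DNA double-strand break by copying the intact sister chromatid, and so works mainly in S and G2 phase. The ends are first cut back by the MRE11, RAD50 and NBN complex with the nucleases EXO1 and DNA2. The BRCA proteins with PALB2 then load a recombinase onto the single strand, and the paralog proteins and the RAD54 family help it to find and invade the sister strand. The Fanconi core complex, with its ubiquitin-conjugating enzyme UBE2T and its ligase subunit FANCL, marks FANCI and its partner at crosslinks that block a replication fork. Many of these genes are known targets of E2F factors and are transcribed most in dividing cells.

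The study used 20 Affymetrix gene arrays in 7 groups. In 2 groups the cells spent 72 h in the medium labelled CDT and then received ethanol for 3 h (CDT, n = 3) or 10 nM dihydrotestosterone, the active androgen, for 3 h (CDT + DHT, n = 3). In the other 5 groups the cells were held in hormone-proficient medium with a cell cycle drug, and all of these also received 10 nM DHT for 3 h. The early G1 arrest used 0.5 µM PD-0332991, an inhibitor of CDK4 and CDK6, for 24 h (n = 3). The late G1 arrest used 5 µg/mL roscovitine, an inhibitor of CDK2 and other cyclin-dependent kinases, for 24 h (n = 3). The early S arrest used 2 µg/mL aphidicolin, which blocks replicative polymerases, for 24 h (n = 2). The late S arrest used 1 mM hydroxyurea, which depletes nucleotides, for 24 h (n = 3). The G2/M arrest used 2 µg/mL aphidicolin for 15 h, a washout and then 50 ng/mL nocodazole, which blocks the spindle, for 9 h (n = 3). Each phase was thus set by its own drug treatment, though the early S and G2/M treatments both used aphidicolin. A phase and its treatment therefore cannot be told apart, and a comparison of an arrest with CDT or CDT + DHT also changes the medium. Separate cultures are not named for the replicates, so p-values describe the spread between these arrays alone, which may be technical.

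Levels below are log2(intensity + 1), and a difference is a difference of group means on that scale, given ± its standard error. Array medians of the deposited intensities lay between 5.44 and 9.09, and no array pair held identical values. The mean of the 7 measured LNCaP markers lay between 5.12 and 7.17 on each array, that of 3 basal epithelial markers between 2.09 and 4.27, that of 5 stromal markers between 1.63 and 3.90 and that of 4 leukocyte markers between 1.65 and 3.54. Over all arrays the basal, stromal and leukocyte lists averaged 3.22, 2.80 and 2.81, near or below the median over all genes of 3.17. No marker list was at 0 on any array, and the part of other cell types in the results was not tested. Arrays of a group differed along a shared axis that held 49.4% of the variance within groups. At its one end were late S replicate 1 (score 1.935) and CDT replicate 1 (1.737). Early G1 replicate 2 (1.67) and CDT + DHT replicate 3 (1.075) followed. Together they are called the 4 outlying arrays below. At the other end were late S replicate 2 (-1.838), CDT replicate 2 (-1.154) and early G1 replicate 1 (-1.113). These scores are larger in size than that of CDT + DHT replicate 3, but these arrays were not left out as a set. Each of the 4 outlying arrays had the lowest mean of the recombination genes in its group, so leaving them out raises those group means. Results that change without those 4 arrays are given with and without them.

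The recombination genes were dim to about the same degree as genes in general on these arrays. Of the 32 genes, 13 had a mean at or above the median over all genes of 3.17, and 68 of their 640 values (10.6%) lay below 1, against 9.51% of the values of all genes. A difference near that floor moves with the pseudocount, and without detection calls signal and background could not be told apart there.

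The late G1 arrest was the only arrest in which any of the 32 genes passed the test against the other arrests, and the genes that passed were RAD51AP1 and FANCG. The first encodes a partner of the recombinase that helps it to pair DNA strands, and the second a subunit of the Fanconi core complex. UBE2T came next in order of p and lay just beyond the threshold. The 250 bases before the start of each of these genes are shown here as the promoter sequence of the genes nearest to or past the threshold. They come from RefSeq on GRCh38.p14, run 5′ to 3′ along the strand of the gene, and lie at chr12:4538640-4538889 on the plus strand for RAD51AP1, chr9:35079943-35080192 on the minus strand for FANCG and chr1:202341937-202342186 on the minus strand for UBE2T. Capitals mark matches to the E2F-like word TTCCCGC, the CHR word TTTGAA and the CCAAT box on either strand.
RAD51AP1: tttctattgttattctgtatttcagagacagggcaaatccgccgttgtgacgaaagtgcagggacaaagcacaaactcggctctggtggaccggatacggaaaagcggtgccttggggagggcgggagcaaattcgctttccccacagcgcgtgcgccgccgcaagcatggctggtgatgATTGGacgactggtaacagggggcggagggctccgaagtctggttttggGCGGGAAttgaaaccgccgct
FANCG: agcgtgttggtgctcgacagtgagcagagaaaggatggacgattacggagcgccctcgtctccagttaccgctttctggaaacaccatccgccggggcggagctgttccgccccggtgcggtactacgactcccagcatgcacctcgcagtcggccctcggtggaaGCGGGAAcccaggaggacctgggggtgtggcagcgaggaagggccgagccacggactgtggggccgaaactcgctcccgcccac
UBE2T: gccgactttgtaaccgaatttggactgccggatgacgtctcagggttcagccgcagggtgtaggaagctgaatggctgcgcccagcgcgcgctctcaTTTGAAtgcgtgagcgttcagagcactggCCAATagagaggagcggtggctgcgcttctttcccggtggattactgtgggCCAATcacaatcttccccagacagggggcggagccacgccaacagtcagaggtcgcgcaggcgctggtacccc

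The RAD51AP1 window held TTCCCGC on its minus strand from base -21 to -15 before the start, and a CCAAT box on the minus strand from -70 to -66. FANCG held TTCCCGC on its minus strand from -84 to -78. UBE2T held no TTCCCGC, but TTTGAA from -153 to -148 and CCAAT boxes from -124 to -120 and from -73 to -69. RefSeq windows of 300 bases, from 250 before the start to 50 after it, were found for 32 of the 37 listed genes, without NBN, DNA2, RAD54B, FANCI and RECQL4. These are not the 32 measured genes, as they include the unmeasured BRCA2, RBBP8, RAD51D, FANCA and FANCD2. The longer E2F words TTTCCCGC, TTTGGCGC, TTTCGCGC and TTTGCCGC, on either strand, occurred in 5 of these 32 windows (15.6%) and in 3.33% of the windows of all 27305 genes. The CHR words TTTGAA and TTCGAA occurred in 4 (12.5%, against 16.6% of all) and CCAAT in 13 (40.6%, against 35.7%). The short word TTCCCGC, which lies within TTTCCCGC, was added after the sequences had been seen. It occurred in 14 windows (43.8%, against 6.56% of all), those of BARD1, BLM, BRIP1, FANCC, FANCD2, FANCE, FANCG, FANCL, POLQ, RAD51AP1, RAD51D, RAD54L, XRCC2 and XRCC3. Of the 27 measured genes with a window, 3 held a longer E2F word, 4 a CHR word, 12 CCAAT and 12 TTCCCGC. A match is a run of letters and not a known site.

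RAD51AP1 (transcript cluster 7953218) read 1.82, 2.66 and 0.26 on the late G1 arrays. It read 5.39, 2.99 and 4.68 in early G1, 4.98 and 5.62 in early S, 4.48, 5.91 and 5.51 in late S, then 5.26, 4.42 and 4.72 in G2/M. Every late G1 array lay below every array of the other arrests, the nearest of which was early G1 replicate 2. In the media without an arrest drug it read 3.72, 3.82 and 2.97 in CDT and 4.76, 5.37 and 3.66 in CDT + DHT, again above all late G1 arrays. Against the mean of the other arrests RAD51AP1 was lower in late G1 by -3.36 ± 0.55 on the log2 scale, a 10.3-fold difference (limma, adjusted p = 0.00511). The call was lost without late G1 replicate 3 (adjusted p = 0.0765), and at a pseudocount of 16 the difference shrank to -1.34 (adjusted p = 0.0133).

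FANCG (transcript cluster 8160935) read 0.43, 0.78 and 2.37 in late G1. It read 3.36, 3.56 and 4.58 in early G1, 5.56 and 4.94 in early S, 2.93, 4.70 and 4.68 in late S, then 3.81, 4.77 and 3.64 in G2/M. The late G1 arrays again lay below all arrays of the other arrests, with late S replicate 1 the nearest. FANCG read 3.69, 4.12 and 1.35 in CDT, where 1 array fell among the late G1 values, and 5.42, 3.72 and 4.0 in CDT + DHT. Against the other arrests it was lower in late G1 by -3.12 ± 0.60, or 8.69-fold (limma, adjusted p = 0.0163). The call was lost without late G1 replicate 1 (adjusted p = 0.121), without late G1 replicate 2 (adjusted p = 0.0999) and at a pseudocount of 16, where the difference was -1.04 (adjusted p = 0.0576).

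These were 2 of 32 genes lower in late G1 than in the other arrests and 0 higher, where 0.690% of all genes were called lower and 0.0163% higher. They were also the 2 of 32 whose late G1 arrays did not overlap the other arrests, all lower, against 1.28% of all genes. The median difference of the 32 genes was -0.75, with 26 below 0, and that of all genes was -0.086, with 55.3% below 0. With arrays centred on their medians, or quantile normalized, the members' median was -0.66 in either case, and at a pseudocount of 16 it was -0.24. At an unadjusted p under 0.05, 10 genes were lower and 1 was higher (34.4% of the 32, against 10.5% of all genes). The count of calls was 5 without late S replicate 1 and 6 without the 4 outlying arrays, as RECQL4, UBE2T and XRCC2 then passed as well in both cases and EXO1 only in the latter. The arrays left out there lie at the same end of the shared axis. Leaving them out raises the means of these genes in late S and early G1, with which late G1 is compared. In bulk RNA of this kind, fewer cells that express a gene and less RNA per cell cannot be told apart.

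UBE2T (transcript cluster 7923426) read 4.97, 2.88 and 3.89 in late G1. Its other arrests lay between 4.61, in early G1 replicate 2, and 6.77, in early S replicate 2, so the groups overlapped by that 1 early G1 array. The difference was -2.17 ± 0.52, or 4.50-fold (limma, adjusted p = 0.0592). RECQL4, a helicase that acts in replication and repair, read 1.81, 2.19 and 0.031 in late G1 and between 1.94 and 4.53 in the other arrests. Its lowest value there was late S replicate 1, which lay among the late G1 values. The difference was -2.40 ± 0.58 (limma, adjusted p = 0.0638). Both genes passed with quantile normalization, with centred arrays, with dim genes left out, with a mean-variance trend, with array weights and without the 4 outlying arrays. Of the 11 alternatives beside leaving out single arrays, UBE2T passed in 7 and RECQL4 in 6.

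The other genes with an unadjusted p under 0.05 in late G1 did not pass. XRCC2, a paralog of the recombinase, differed by -1.88 ± 0.62. FANCL, the ligase of the core complex, differed by -1.86 ± 0.70, and FANCI, its substrate, by -1.83 ± 0.72. EXO1, the resection nuclease, differed by -1.74 ± 0.77, RAD51C by -1.38 ± 0.58 and FANCC by -1.12 ± 0.54. FANCE, a subunit that links the core complex to its substrates, was the exception and differed by 1.97 ± 0.68, with 4.23, 3.11 and 2.60 in late G1 and 0.036 and 0.72 in early S. Adjusted p-values of these 7 genes lay between 0.220 and 0.473 in limma's test.

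**Figure D1:**
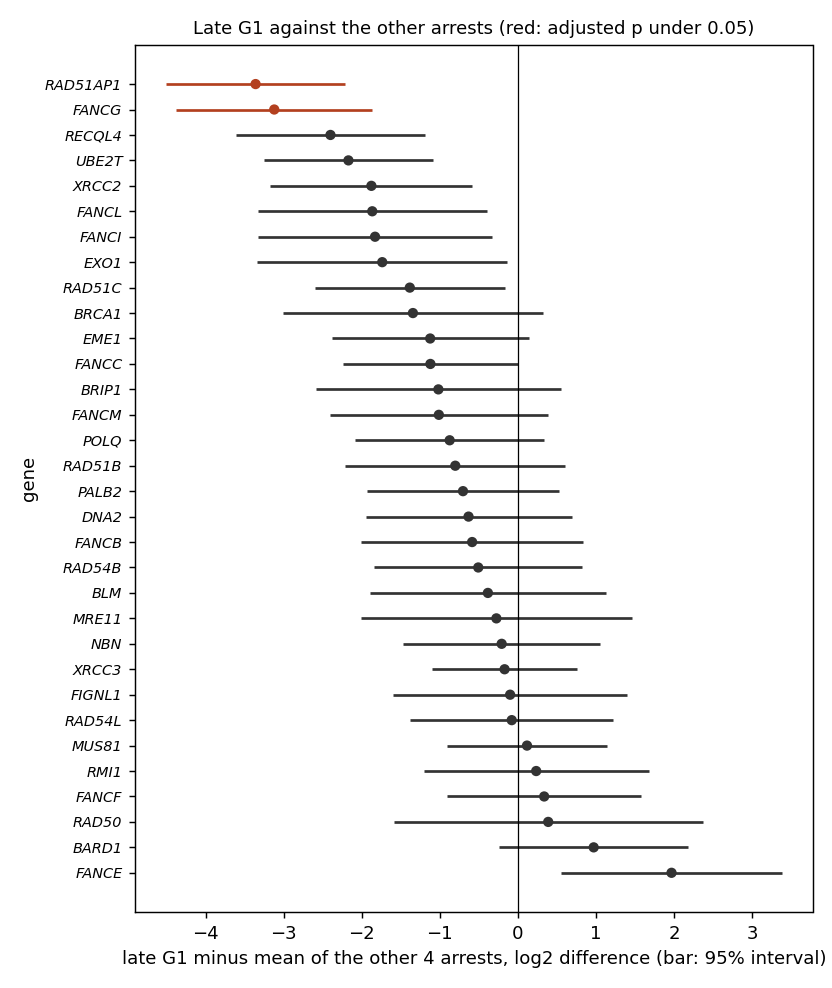
Difference on the log2(intensity + 1) scale between late G1 and the mean of the other 4 arrests for each of the 32 genes, with 95% confidence intervals from limma. RAD51AP1 (-3.36) and FANCG (-3.12) passed the adjusted threshold, and FANCE lay farthest above 0 at 1.97.

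By role, the mean of the 8 measured genes of the core complex with UBE2T lay between 1.97 and 2.11 on the late G1 arrays and between 2.02 and 3.56 on the arrays of the other arrests. The mean of the 8 paralog and remodeller genes lay between 2.35 and 3.02 in late G1, and that of the 5 helicase and nuclease genes BLM, RMI1, RECQL4, EME1 and MUS81 between 2.61 and 2.70. The 5 resection genes averaged 3.31 in late G1, 3.40 in late S, 3.49 in early G1, 3.97 in G2/M and 4.36 in early S. The 4 BRCA core genes averaged 3.20 in late G1, 3.31 in early G1, 3.41 in late S, 3.84 in G2/M and 4.35 in early S. Late G1 thus had the lowest mean of the arrests for these roles too, but it lay close to early G1 and late S and its arrays overlapped theirs. BARD1, the partner of BRCA1, read 6.99, 6.79 and 7.09 in late G1, where 5.77 and 6.46 were its early S values. It lay at 7.11, 4.59 and 6.01 in early G1 and at 3.96, 6.75 and 5.58 in late S, so its groups overlapped. BRCA1 itself lay between 0.0044 and 3.73, with 7 of its 20 values below 1.

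In the remaining genes the late G1 arrays overlapped those of the other arrests. NBN, the signalling subunit of the resection complex, read 3.92, 3.43 and 3.19 in late G1, and its 20 values ran from 1.39 in late S replicate 1 to 5.43 in early G1 replicate 1. RAD51C read 4.36, 3.86 and 4.71 in late G1 and 5.71 and 6.84 in early S, and its highest value was 7.10 in late S replicate 2. Of the other arrests only early G1 replicate 2, at 3.88, fell among its late G1 values. MUS81 read 3.52, 4.92 and 4.64 in late G1 and 5.52 and 3.41 in early S. POLQ, the polymerase of theta-mediated end joining, read 1.94, 2.46 and 3.15 in late G1, 3.64 and 3.82 in early S, and 3.01, 4.26 and 4.34 in G2/M. EME1, the partner of MUS81, ran from 0.0069 to 4.38, RMI1 from 0.95 to 5.02 and BLM, the helicase that RMI1 assists in dissolving joined strands, from 0.035 to 3.96. FIGNL1, a remodeller of the recombinase, ran from 0.17 to 4.57, RAD54L from 0.18 to 4.45 and FANCM, the anchor of the core complex, from 0.0082 to 4.01. The highest array was late S replicate 2 in RAD51C, EME1 and RMI1, and early G1 replicate 1 in NBN and FIGNL1.

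**Figure D2:**
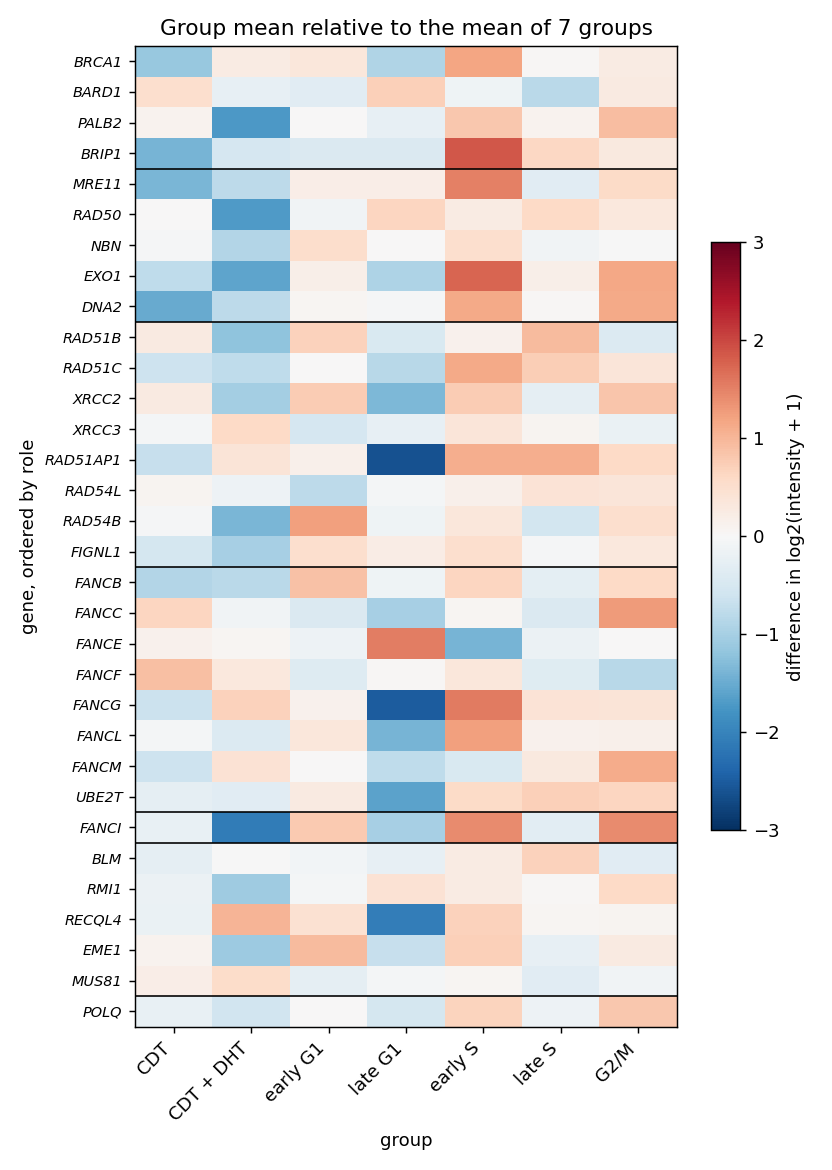
Group mean of each of the 32 genes in the 7 groups, as log2(intensity + 1) minus the mean of the 7 group means of that gene. Genes are in rows, with lines between roles, and the late G1 column is low (blue) for RAD51AP1, FANCG and RECQL4 and high (red) for FANCE.

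Late G1 was the arrest with the lowest mean for 17 of the 32 genes (53.1%), against 26.5% of all genes. Late S was lowest for 7 (21.9%, against 24.1% of all genes) and early G1 for 5 (15.6%, against 14.4%). G2/M was lowest for 2 (6.25%, against 17.8%) and early S for 1 (3.12%, against 17.1%). Early S had the highest mean for 12 (37.5%), against 29.1% of all genes, and G2/M for 7 (21.9%, against 17.8%). Early G1 was highest for 5 (15.6%, against 14.3%), late S for 5 (15.6%, against 19.8%) and late G1 for 3 (9.38%, against 19.1%). The mean over the 32 genes was 2.69 ± 0.084 (SD, n = 3) in late G1, 2.71 ± 0.60 (n = 3) in CDT + DHT and 2.94 ± 0.40 (n = 3) in CDT. It was 3.29 ± 1.09 (n = 3) in late S, 3.36 ± 0.67 (n = 3) in early G1, 3.62 ± 0.21 (n = 3) in G2/M and 3.83 ± 0.31 (n = 2) in early S. Neighbours in that order lay within their spread, and the late S arrays alone spanned 2.21 to 4.39. The mean over all genes lay between 3.42 and 3.61 in every group, and of the arrests it too was lowest in late G1 and highest in early S. On single arrays it ran from 3.11 in CDT + DHT replicate 3 to 3.87 in late S replicate 2. The mean of the 32 genes was lowest and highest on these same arrays.

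**Figure D3:**
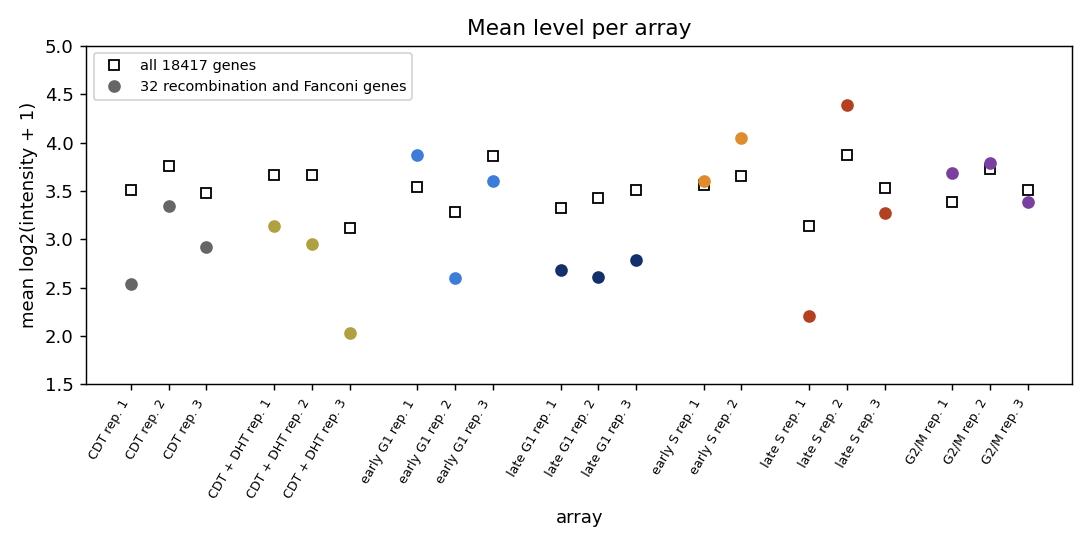
Mean log2(intensity + 1) of the 32 genes on each array by group, with the mean of all 18417 genes on the same array. The 3 late G1 arrays lie close together around 2.69, and the late S arrays spread from 2.21 to 4.39.

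With the mean of the S and G2/M arrests set against that of the G1 arrests, RAD51AP1 was the only one of the 32 genes called. It was higher by 2.17 ± 0.46, or 4.49-fold (limma, adjusted p = 0.0491), where 0.282% of all genes were called higher and 0.00543% lower, and its arrays overlapped. The call sat at the threshold. It was lost without any 1 of 16 of the 20 arrays, remaining only when the array left out was late S replicate 1, early G1 replicate 1, CDT + DHT replicate 3 or late G1 replicate 2. It was also lost with the replicate number as a block (2.10, adjusted p = 0.0948). FANCG differed by 1.96 ± 0.50 (adjusted p = 0.151) and UBE2T by 1.32 ± 0.43 (adjusted p = 0.390). The G1 arrests were not alike in these genes. RAD51AP1 averaged 4.35 in early G1 and 1.58 in late G1, beside 4.80 in G2/M and 5.30 in either S arrest. FANCG averaged 3.83 in early G1 and 1.2 in late G1, and UBE2T 5.80 and 3.91. These differences thus draw on the same low late G1 arrays as above. Whether early G1 alone differs from the S and G2/M arrests was not tested. The median of the 32 genes was 0.71, with 25 above 0, and that of all genes was 0.054, with 54.7% above 0. At an unadjusted p under 0.05 there were 9 genes (28.1%), 8 of them higher, against 5.94% of all genes.

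Across the 5 arrests together, limma's F test called 0 of the 32 genes, where 0.255% of all genes were called. RAD51AP1 had the lowest adjusted p, 0.0623, and 6 of the 32 genes (18.8%) had an unadjusted p under 0.05, against 6.89% of all genes. Each of the other arrests against the rest gave 0 calls among the 32 genes, where the share of all genes called was 0% for early G1 and for early S and 0.0271% for late S and for G2/M. In limma's unadjusted test, 0, 3, 1 and 1 of the 32 genes had a p under 0.05 in these 4 comparisons. The shares of all genes were 2.47% for early G1, 3.88% for early S, 6.92% for late S and 5.00% for G2/M. The member medians were 0.29 in G2/M, -0.21 in late S, 0.59 in early S and -0.16 in early G1, beside 0.035, -0.046, 0.17 and 0.046 for all genes. The late S median turned to 0.46 without the 4 outlying arrays, of which late S replicate 1 alone gave 0.53.

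In early S, FANCG was the only gene of the 32 whose arrays lay above all other arrests, with a difference of 1.95 ± 0.70 (limma, adjusted p = 0.950), where 1.07% of all genes did so. In G2/M the only such gene was FANCC, a core complex subunit, where 0.353% of all genes did so. FANCC read 3.09, 2.49 and 3.77 in G2/M, and at most 2.47, in late S replicate 3, in the other arrests, so the gap was narrow. In CDT it read 2.90, 1.31 and 3.25, which overlapped G2/M. Its difference in G2/M was 1.72 ± 0.54 (limma, adjusted p = 0.593).

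Against CDT + DHT, which shares the hormone but not the medium, late G1 gave 0 calls among the 32 genes, where 0.489% of all genes were called lower and 0.0271% higher. At an unadjusted p under 0.05 there were 3 genes, all lower, or 9.38% of the 32 against 14.0% of all genes. They were RAD51AP1 at -3.02 ± 0.69 (limma, adjusted p = 0.0531), RECQL4 at -3.09 ± 0.72 (adjusted p = 0.0575) and FANCG at -3.18 ± 0.75 (adjusted p = 0.0576). RECQL4 read 4.16, 4.86 and 4.30 in CDT + DHT, and the arrays of all 3 genes did not overlap between the groups. All 3 passed without late S replicate 1, RECQL4 and FANCG without CDT replicate 3, and RAD51AP1 without early G1 replicate 2 or late G1 replicate 2. In all, 5 of the 32 genes lay lower without overlap, against 14.0% of all genes, and 5 higher, against 10.8%. The higher ones were led by RAD50, at 2.36 ± 1.18, and PALB2, at 1.48 ± 0.73, with adjusted p-values of 0.381 and 0.378. RAD50, the scaffold of the resection complex, read 5.39, 4.84 and 4.71 in late G1 and 3.60, 4.24 and 0.027 in CDT + DHT. The low array there was replicate 3, which is among the 4 outlying arrays. The median of the 32 genes was 0.088, beside -0.071 for all genes, and it was -0.21 without the 4 outlying arrays.

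G2/M against CDT + DHT gave 0 calls among the 32 genes, where 0.271% of all genes were called higher and 0.168% lower. At an unadjusted p under 0.05, 6 genes were higher and 0 lower, 18.8% of the 32 against 15.1% of all genes. FANCI, which is ubiquitinated at a stalled fork, came closest. It read 4.87, 5.31 and 4.80 in G2/M and 1.63, 0.27 and 2.55 in CDT + DHT, a difference of 3.51 ± 0.90 (limma, adjusted p = 0.0845), and it passed without late S replicate 1. Its CDT values were 2.02, 3.78 and 4.29. EXO1 read 3.89, 4.64 and 3.41 in G2/M and 2.35, 1.37 and 0.010 in CDT + DHT, a difference of 2.74 ± 0.96 (adjusted p = 0.193). PALB2, which bridges the BRCA proteins, read 5.14, 4.49 and 4.93 against 3.08, 2.62 and 0.96, a difference of 2.63 ± 0.73 (adjusted p = 0.113). In all 3 genes each G2/M array lay above each CDT + DHT array, as it did for 8 of the 32 genes, against 15.1% of all genes. On the lower side were 3 genes, against 11.8% of all, led by RECQL4 at -0.93 ± 0.72 (adjusted p = 0.581) and XRCC3, a recombinase paralog, at -0.81 ± 0.56 (adjusted p = 0.518). XRCC3 read 4.65, 4.50 and 4.45 in CDT + DHT and 3.16, 4.12 and 3.88 in G2/M.

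In early S against CDT + DHT, 0 of the 32 genes were called, where 0% of all genes were called higher and 0.00543% lower, and 7 had an unadjusted p under 0.05 (21.9%, against 7.62%). The member median of 1.32 was the highest of all comparisons with this group, beside 0.061 for all genes. It was 0.66 both without CDT + DHT replicate 3 and without the 4 outlying arrays. FANCI, at 4.08 and 5.92 in early S, differed by 3.52 ± 1.00 (limma, adjusted p = 0.422) and EXO1, at 4.39 and 4.76, by 3.33 ± 1.07 (adjusted p = 0.489). In 15 of the 32 genes both early S arrays lay above all CDT + DHT arrays, against 15.3% of all genes, and FANCE alone lay below, at -1.44 ± 0.94, against 13.2% of all genes. 

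In early G1 against CDT + DHT there were again 0 calls, where 0% of all genes were called, and 6 genes had an unadjusted p under 0.05 (18.8%, against 8.07%). Higher without overlap lay 6 genes, against 7.16% of all genes, and lower lay 2, against 8.71%. FANCI, at 5.14, 3.74 and 4.25, differed by 2.89 ± 0.90 (adjusted p = 0.490). RAD54B, a motor protein of strand exchange, read 4.96, 3.47 and 3.62 in early G1 and 1.97, 0.80 and 1.47 in CDT + DHT and differed by 2.60 ± 0.80 (adjusted p = 0.467). Lower in early G1 were XRCC3, by -1.12 ± 0.56 (adjusted p = 0.629) and MUS81, a structure-specific nuclease, by -0.83 ± 0.61 (adjusted p = 0.720). In late S against CDT + DHT, 0 genes were called, where 0.0543% of all genes were called higher and 0.0163% lower. RAD51B, at 3.81, 3.67 and 2.91 in late S and 1.62, 2.31 and 0.0095 in CDT + DHT, differed by 2.15 ± 0.84 (adjusted p = 0.410), RAD54L by 0.56 ± 0.78 and XRCC3 by -0.53 ± 0.56. In late S, 2 genes lay higher without overlap, against 6.29% of all genes, and 1 lower, against 8.81%, and 2 had an unadjusted p under 0.05 (6.25%, against 10.2%). These comparisons share the CDT + DHT arrays, in which FANCI and EXO1 were low.

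**Figure D4:**
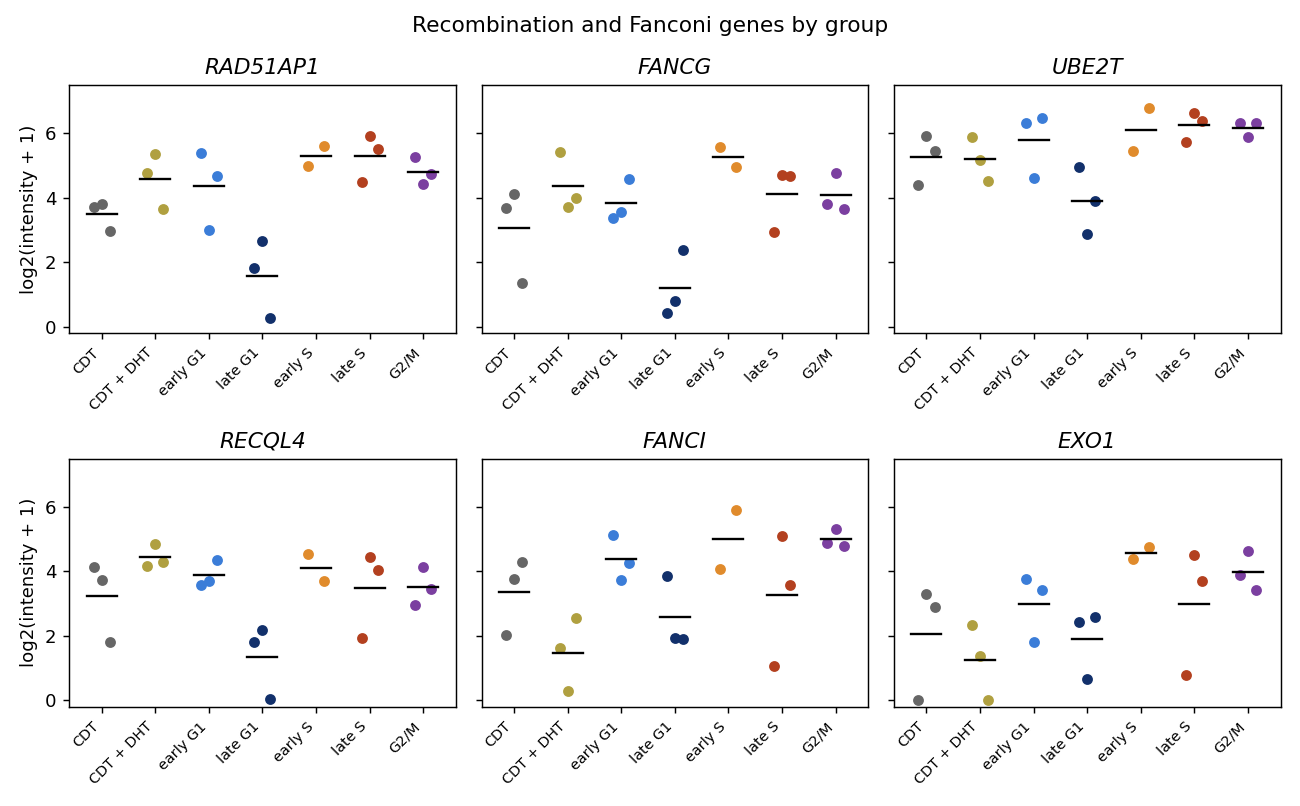
Log2(intensity + 1) of 6 of the genes on each array by group, with a line at each group mean. RAD51AP1, FANCG and RECQL4 are low on all 3 late G1 arrays, and FANCI and EXO1 are low in CDT + DHT and high in early S and G2/M.

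Against CDT, where hormone, drug and medium all differ, 0 of the 32 genes were called in any arrest. Early S stood out by its unadjusted counts, with 8 of the 32 genes higher at p under 0.05 and 0 lower (25.0%, against 5.57% of all genes in limma's test). After adjustment 0.0109% of all genes were called higher in early S and 0.0217% lower, or 0.0326% in all. BRIP1, a helicase that binds BRCA1, read 2.84 and 4.44 in early S and 0.12, 0.97 and 0.0032 in CDT, a difference of 3.27 ± 1.05 (limma, adjusted p = 0.667). MRE11, the resection nuclease, read 4.34 and 4.65 against 0.64, 2.85 and 1.40 and differed by 2.86 ± 1.16 (adjusted p = 0.844). Neither gene overlapped between the groups, as was so for 10 of the 32 genes on the higher side and 0 on the lower, against 11.0% of all genes on either side.

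In G2/M against CDT, 0.109% of all genes were called, 0.0489% higher and 0.0597% lower, and 2 of the 32 genes, DNA2 on the higher side and FANCF on the lower, had an unadjusted p under 0.05 (6.25%, against 7.05% of all). DNA2, the nuclease and helicase of long-range resection, read 4.28, 4.56 and 3.63 in G2/M and 0.053, 2.39 and 2.05 in CDT and differed by 2.66 ± 0.79 (limma, adjusted p = 0.340). FANCF, a core complex subunit, read 2.60, 4.02 and 1.27 in G2/M and 4.89, 3.88 and 4.28 in CDT, which overlapped, and differed by -1.72 ± 0.74 (adjusted p = 0.671). EXO1 differed there by 1.91 ± 0.96 (adjusted p = 0.736), with an unadjusted p above 0.05. DNA2 and EXO1 were among 4 genes higher without overlap, against 6.64% of all genes, and 0 were lower, against 7.55%. In late S, 0.0977% of all genes were called, all higher, and 2 of the 32 genes had an unadjusted p under 0.05 (6.25%, against 5.94%). These were the 2 that did not overlap, both higher, against 4.01% of all genes higher and 5.18% lower. BRIP1 read 1.46, 3.95 and 1.79 in late S and differed by 2.04 ± 0.94 (adjusted p = 0.827), and RAD51AP1 differed by 1.79 ± 0.69 (adjusted p = 0.706).

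The G1 arrests against CDT gave medians of opposite sign. In early G1, 0.00543% of all genes were called, and 0 of the 32 genes had an unadjusted p under 0.05, against 5.11% of all genes. Without overlap, 3 genes lay higher, against 3.21% of all, and 1 lower, against 7.07%. The higher ones were led by FANCB, at 1.76 ± 0.85, and BRCA1, at 1.47 ± 0.99, and the lower one was FANCF, at -1.27 ± 0.74, each with an adjusted p of 0.955 in limma's test. In late G1, 0.103% of all genes were called, 0.00543% higher and 0.0977% lower, and 5 of the 32 genes had an unadjusted p under 0.05, all lower (15.6%, against 9.06%). Without overlap 3 genes lay lower, against 10.1% of all, and 0 higher, against 5.52%. They were led by RAD51AP1, at -1.93 ± 0.69 (adjusted p = 0.368), and XRCC2, at -1.62 ± 0.77 (adjusted p = 0.550), which read 1.13, 0.86 and 2.28 in late G1. The member medians against CDT were 0.70 in G2/M, 0.29 in late S, 0.66 in early S, -0.17 in late G1 and 0.55 in early G1, beside -0.050, -0.099, 0.066, -0.15 and -0.038 for all genes. The late S median was -0.27 without late S replicate 2 and 0.82 without late S replicate 1.

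The hormone alone, in CDT + DHT against CDT, gave 0 calls among the 32 genes, where 0% of all 18417 genes were called, and 1 gene (3.12%) had an unadjusted p under 0.05 in limma's test, against 6.86% of all genes. That gene was PALB2, which read 2.93, 4.65 and 4.54 in CDT and lay lower with DHT by -1.82 ± 0.73. RECQL4 lay higher by 1.21 ± 0.72 (adjusted p = 0.757) and XRCC3 by 0.67 ± 0.56 (adjusted p = 0.838). RAD54B lay lower by -1.33 ± 0.80 (adjusted p = 0.757) and XRCC2 by -1.28 ± 0.77 (adjusted p = 0.762), with 2.72, 3.31 and 3.11 in CDT and 2.29, 1.26 and 1.75 with DHT. In these 4 genes the groups did not overlap, as in 2 of the 32 genes on the higher side, against 7.81% of all genes, and 4 on the lower, against 5.95%. The member median was -0.28, beside -0.095 for all genes, but it was 0.13 without CDT + DHT replicate 3 and -0.60 without CDT + DHT replicate 2.

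**Figure D5:**
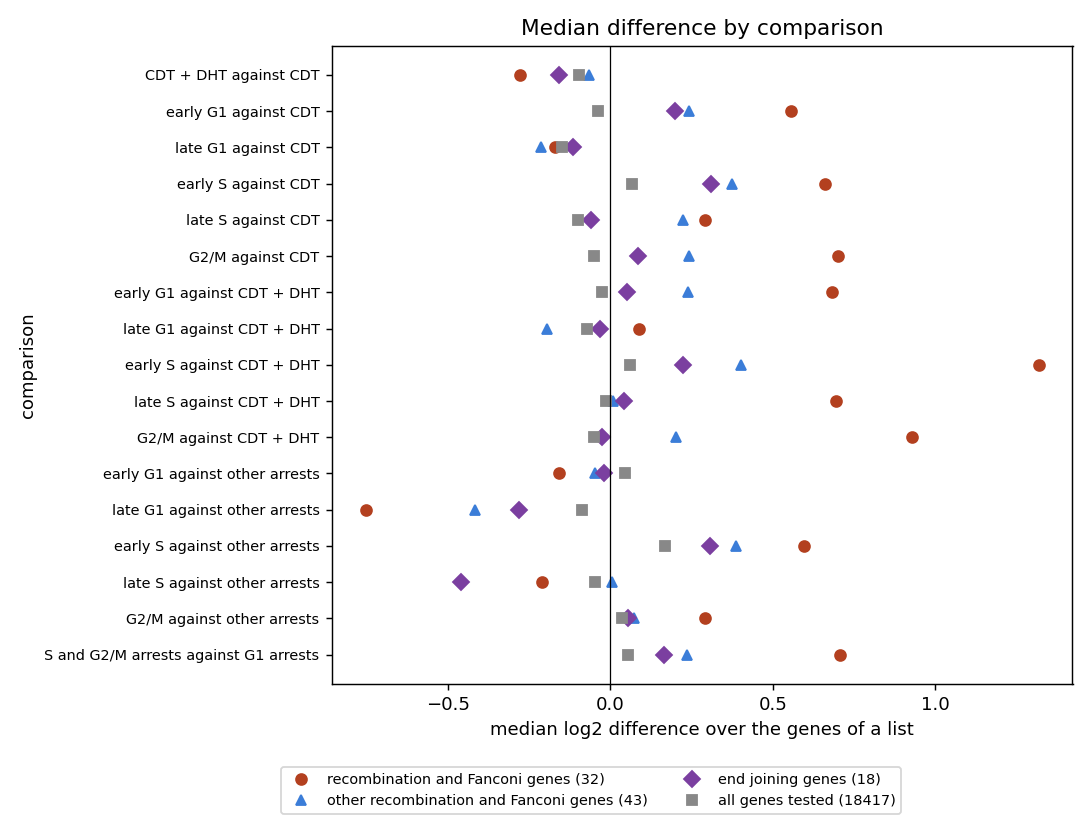
Median difference on the log2(intensity + 1) scale over the 32 genes, the 43 other recombination and Fanconi genes, the 18 end joining genes and all 18417 genes in each comparison. The 32 genes lie farthest below 0 for late G1 against the other arrests (-0.75) and farthest above 0 for early S against CDT + DHT (1.32).

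Among the 43 other recombination and Fanconi genes, MND1 was the only one called in any comparison. It encodes, with PSMC3IP, a complex that aids strand invasion and is best known from meiosis. MND1 read between 3.42 and 3.83 in late G1, between 3.68 and 7.44 in the other arrests and between 5.65 and 7.03 in CDT + DHT. In late G1 it was lower than in the other arrests by -2.56 ± 0.51 (limma, adjusted p = 0.0203) and lower than in CDT + DHT by -2.87 ± 0.64 (adjusted p = 0.0487). It was higher in the S and G2/M arrests than in the G1 arrests by 2.06 ± 0.43 (adjusted p = 0.0427). MND1 averaged 5.25 in early G1 and 3.62 in late G1, so this difference too draws on the low late G1 arrays. The first call was lost without any 1 late G1 array, with adjusted p-values up to 0.112. The second was lost without 15 of the 20 arrays in turn and the third without 14. Of the 11 other alternatives, the second was lost in 3 and the third in 2, with limma's adjusted p-values up to 0.112 and 0.088. Among these was the replicate block for both calls, at adjusted p-values of 0.0733 and 0.0829. Of the 18 end joining genes, 0 were called in any comparison.

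Cell cycle genes gave the setting of these values. The mitotic kinase gene PLK1 averaged 1.87 ± 0.63 (SD, n = 3) in late G1 and 7.47 ± 0.73 (n = 3) in G2/M, and the proliferation marker MKI67 averaged 0.53 ± 0.87 (n = 3) in late G1 and 5.51 ± 0.32 (n = 3) in G2/M. PLK1, MKI67 and CCNB1 passed in late G1 against the other arrests, all lower. PCNA, the replication clamp, was higher in the S and G2/M arrests than in the G1 arrests and averaged 5.47 ± 0.30 (n = 3) in late G1 and 7.65 ± 0.48 (n = 3) in late S. In early G1, CDC6, a replication licensing gene, averaged 6.57 ± 1.14 (n = 3) and CCNB1 7.24 ± 0.49 (n = 3), beside 5.66 ± 0.39 and 5.59 ± 0.35 in late G1. Of the listed phase genes, MCM5 and CCNE2 went the other way. They averaged 5.59 ± 1.40 and 3.95 ± 1.42 in early G1, beside 5.98 ± 0.22 and 4.17 ± 0.28 in late G1. Unlike PCNA, MCM5 was lowest of all groups in early S, at 4.64 ± 0.80 (n = 2). The part of these shifts in the results of the recombination genes was not tested.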

How the data were processed

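Per the labels' protocols, LNCaP RNA came from Trizol extraction and was biotin-labelled after amplification by the Ovation Pico WTA V2 kit. The authors deposited 1 intensity per transcript cluster, linear and above 0. Per the submitters' processing notes, the software was Affymetrix Expression Console 1.1. How probes were summarised, and whether arrays were normalized to each other, is not given in the sources used here.

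Of 33297 features, 19460 had 1 gene symbol in the platform annotation, 1754 had several and 12083 were not listed. Names were updated through RefSeq (19429 matched), and the brightest cluster was kept for each of 769 genes with several. Log2(value + 1) of 18417 genes was fitted with limma 3.58.1 (R 4.3.3), by lmFit and eBayes with a coefficient for each group and all 20 arrays. Tests were two-sided at a threshold of 0.05 after Benjamini-Hochberg adjustment over the 18417 genes. The number of arrays limits the precision. The script was tested on simulated data. The 18 comparisons were DHT against CDT, each arrest against CDT, against CDT + DHT and against the mean of the other arrests, S and G2/M against G1, and an F test among arrests. For an arrest against the others, arrays did not overlap when every array of it lay on 1 side of every other arrest array.

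The members and lists were chosen with earlier results of these data known. Genes named with values are those that passed, the 2 with the largest non-overlapping difference per direction in each comparison, and examples chosen after their values were seen. Alternatives were quantile normalization, centring, another pseudocount (16), a filter on dim genes, other handling of clusters, eBayes with trend and robust, array weights, a block for the replicate number, a fit of only the groups compared, the 4 outlying arrays left out, and each array left out in turn.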

Additional observations from a re-analysis of the deposited data

How the results depend on the processing

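No difference of a named gene that passed turned its direction under the alternatives run. The count of the 32 genes called in late G1 against the other arrests, 2, was 4 with quantile normalization, centred arrays, dim genes left out or trend and robust, 5 with array weights and 6 without the 4 outlying arrays, and 1 to 5 with 1 array left out. It was 1 without late G1 replicate 2 or replicate 3. The 4 outlying arrays lie at the same end of the shared axis, so leaving them out is a choice from that side only. In late G1 against CDT + DHT the count of 0 became 3 with quantile normalization, centred arrays, dim genes left out, trend and robust or array weights, and 1 with a pseudocount of 16 or without the 4 outlying arrays, and ranged from 0 to 3 with 1 array left out. Among the arrests the count of 0 became 1 with quantile normalization, centred arrays, dim genes left out or without the 4 outlying arrays, 2 with trend and robust and 3 with array weights, and ranged from 0 to 1 with 1 array left out. In G2/M against CDT + DHT the count of 0 became 1 with dim genes left out, only the groups compared or without the 4 outlying arrays, 2 with trend and robust and 6 with array weights, and ranged from 0 to 1 with 1 array left out. Array weights also gave 3 calls in late S against CDT + DHT and 1 in late S against the other arrests. The single call in S and G2/M against G1 became 0 with the mean of a gene's clusters, a pseudocount of 16, the replicate block, only the groups compared or without the 4 outlying arrays, and ranged from 0 to 1 with 1 array left out. The cause of these changes was not tested.

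Member medians also moved. In early G1 against CDT + DHT the median was -0.084 with dim genes left out. With a pseudocount of 16 it was 0.42 in early S and 0.32 in G2/M against CDT + DHT, since a higher pseudocount shrinks differences of dim genes. Without the 4 outlying arrays it was 0.66 in early S against CDT + DHT and 0.46 in late S against the other arrests. With 1 array left out it ranged from 0.66 to 1.52 in early S against CDT + DHT, from -0.018 to 1.26 in late S against CDT + DHT (lowest without late S replicate 2) and from -0.65 to 0.53 in late S against the other arrests. Leaving out 1 array also turned the sign of the median in CDT + DHT against CDT (-0.60 to 0.13), late S against CDT (-0.27 to 0.82), late G1 against CDT + DHT (-0.21 to 0.56) and early G1 against the other arrests (-0.29 to 0.38, highest without early G1 replicate 2). In late G1 against the other arrests the median stayed below 0, from -0.87 without the 4 outlying arrays to -0.24 with a pseudocount of 16.

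Replicate numbers did not pair the arrays. Deviations of same-numbered arrays correlated over 0.1 in 22 of 57 pairs, with a median of -0.029 over 6139 brighter genes, and 6 of 20 arrays were closest to their own number. The replicate block changed 1 count, the call in S and G2/M against G1 (0 with the block). The planned case of values already on a log2 scale did not arise. Groups of 2 or 3 arrays, values near the floor and the absence of detection calls here limit what could pass.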
